A study of Danio rerio with 9 samples.

Results

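Integrins, laminins and the glycoproteins of basement membranes and neighbouring matrix were followed across 3 tissues around the heart of the zebrafish larva. The members were taken by gene symbol, as integrin alpha and beta subunits, laminin alpha, beta and gamma chains, nidogens, perlecan (HSPG2), agrin, fibronectin, fibulins, fibrillins, emilins, tenascins, periostin, VCAM1, dystroglycan and SPARC. Of the 32520 genes in the count table, 79 carried such a symbol and 73 of these had a total of at least 10 counts over all libraries. The symbol rule also took in ITGB1BP1, itgb3bp and ITGBL1, which share a name stem with the integrins but are not integrin subunits.

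RNA was sequenced in 9 libraries, 4 from proepicardium, 3 from heart tube and 2 from dorsal pericardium, all from larvae of strain AB at 60 hours post fertilisation. All 3 groups carried the same transgenes, epi:eGFP and myl7:mRFP, the latter under the promoter of a heart muscle myosin light chain, and there was no group without them. Each library came from a pool of at least 10 hand-dissected organs, and its cDNA was amplified from the lysed tissue with a kit for very small inputs. The series design text gives 3 proepicardium samples, the sample labels list 4, and all 4 were used. The labels call the samples replicates and each is a pool, so p-values measure the spread between these pools. Libraries held 8882853 to 19397355 counts in genes, and 64 of the 73 members had enough counts to be tested.

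A basement membrane is a thin sheet of matrix under an epithelium or around muscle cells. Laminins, each built from an alpha, a beta and a gamma chain, form its first network, and nidogens, perlecan and agrin tie that network to the other components. Integrins, each a pair of an alpha and a beta subunit, and dystroglycan are the cell surface receptors that bind this sheet and connect it to the cytoskeleton. The proepicardium is a cluster of mesothelial cells that releases the cells which later cover the heart as the epicardium, and such cells attach to fibronectin-containing matrix through integrins.

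The dissected tissues were checked against marker genes. Cardiomyocyte markers (7 rows, among them myl7, nppa and myh6) made up 3.59% to 4.66% of counts in the heart tube, 0.0121% to 0.0537% in the proepicardium and 0.00255% to 0.00875% in the pericardium. Proepicardial and epicardial markers (5 rows) did not set the proepicardium apart as a list, with sums of 11.3 to 44.2 CPM (counts scaled to a common library size) in the proepicardium, 18.2 to 103.8 in the heart tube and 6 to 8.28 in the pericardium. Only wt1b, at 0.773 to 2.58 CPM in the proepicardium, 0 to 0.0691 in heart tubes and 0.1 to 0.608 in the pericardium, was called between proepicardium and heart tube. WT1 was too low to test, at 0.249 to 1.11 CPM in the proepicardium and 0 counts in every heart tube. ALDH1A2 stood at 6.89 to 30.9 CPM in the proepicardium and 13.1 to 100.5 in heart tubes, with a log2 difference of -1.49 that was not called. TBX18 (-0.07) and TCF21 (1.14) were not called either. Epidermal markers (9 rows, keratins, tp63, epcam and claudins) made up 4.61%, 4.92%, 1.28% and 3.02% of counts in proepicardium 1 to 4. The same markers made up 0.601%, 0.0242% and 0.0275% in heart tube 1 to 3 and 5.66% and 6.84% in pericardium 1 and 2. By this sum heart tube 1 stood apart from the other heart tubes. Most of each sum was krt4 and cyt1, at 89489 and 16446 counts in heart tube 1. In heart tube 1 to 3, cldn1 had 2, 3 and 5 counts and cdh1 had 1097, 580 and 912, so not every row set heart tube 1 apart. Erythroid markers (3 rows) made up 0.427%, 0.157% and 0.0747% of counts in heart tube 1 to 3, so they also set heart tube 1 apart. Skeletal muscle markers (4 rows) made up 0.111%, 0.120% and 0.0794% there, and by their sum did not. Most of that sum was ckma, at 20403, 16550 and 11035 counts in heart tube 1 to 3. The other rows did set heart tube 1 apart. MYOD1 had 354, 14 and 15 counts, TNNT3 ENSDARG00000068457 had 517, 40 and 14, and TNNT3 ENSDARG00000030270 had 306, 5 and 1. Of the 9 epidermal rows, 7 were called higher in proepicardium than heart tube (16.8% of all genes) and 8 lower in heart tube than pericardium (16.1%). None of the 9 was at 0 counts in any library. Fibroblast and mesenchyme markers (5 rows, among them COL1A2 and PDGFRA) made up 0.0898% to 0.200% of counts in the proepicardium, 0.00892% to 0.0107% in the heart tube and 0.123% to 0.206% in the pericardium. Endothelial and endocardial markers (7 rows) made up 0.0045% to 0.0176%, 0.0351% to 0.0607% and 0.00315% to 0.00891% in the same order. These marker levels moved with tissue in the same libraries as the members. Their part in the member results was not tested, and in bulk samples fewer cells of a type and less RNA per cell cannot be told apart.

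The 73 members together took 0.327%, 0.742%, 0.248% and 0.330% of the gene counts in proepicardium 1 to 4, 0.150%, 0.174% and 0.143% in heart tube 1 to 3, and 0.714% and 0.740% in pericardium 1 and 2. The heart tube values all lay below those of the other tissues, while proepicardium 2 reached the range of the pericardium. Much of these shares came from FN1 ENSDARG00000006526, POSTN ENSDARG00000104267 and SPARC. Of 83287 member counts in proepicardium 2 they had 36771, 20589 and 10850, and of 133032 in pericardium 1 they had 51002, 34591 and 20852. In heart tube 2 they had 113, 122 and 3088 of 24071. Outside the heart tube the summed share mainly follows these genes and does not describe the members as a set. The widest 95% Wilson interval of these shares, that of proepicardium 2, ran from 0.737% to 0.747% and covers counting error only. Between proepicardium and heart tube, 33 of the 64 tested members (51.6%) had an adjusted p under 0.05 in edgeR's quasi-likelihood test with Benjamini-Hochberg adjustment over all 17003 genes tested, and such members are termed called. Of all genes tested, 29.4% were called in this comparison. Of the 33 members, 19 were higher in the proepicardium (16.8% of all genes were) and 14 were lower (12.7% of all genes were). Between heart tube and pericardium, 30 members were called (46.9%), against 27.1% of all genes. Of these 30, 14 were higher in the heart tube (11% of all genes) and 16 were lower (16.1% of all genes). Leaving out either pericardium library, so that a lone one remained, lowered both the count of 30 and the share of all genes called. Most of the members that lost their call were among those higher in the heart tube, and the count of those lower hardly changed. The calls higher in heart tube than pericardium therefore rest more on having both pericardium libraries. Whether the calls of all genes fell in the same one-sided way was not counted. At an unadjusted p under 0.05 there were 42 members between proepicardium and heart tube (40.2% of all genes) and 34 between heart tube and pericardium (38% of all genes). The libraries of the 2 tissues did not overlap for 18 members higher in proepicardium (19.8% of all genes) and 15 lower (16%). For heart tube and pericardium, whose groups are smaller, they did not overlap for 24 members higher in heart tube (25.2% of all genes) and 21 lower (32.9%). The median log2 difference of the tested members was 0.13 between proepicardium and heart tube, where the median of all genes was 0.17. It was 0.14 between heart tube and pericardium, where the median of all genes was -0.09.

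Both comparisons use the same 3 heart tube libraries, so their values are given side by side and not as separate evidence. Of the tested members, 16 were called higher in both the proepicardium and the pericardium than in the heart tube, and 10 were called lower in both. A further 7 were called between proepicardium and heart tube alone, 3 of them higher in proepicardium. Another 4 were called between heart tube and pericardium alone, all higher in heart tube. The matching shares of all genes were not counted. Whether these joint counts differ from those of genes in general therefore cannot be judged. Below, log2 differences are proepicardium minus heart tube or heart tube minus pericardium, with the standard error (SE) after the ± sign, and adjusted p-values are those of edgeR. Symbols are given as the symbol table has them, and several zebrafish copies of a gene are listed there under one symbol and are told apart by their Ensembl identifiers.

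**Figure D1:**
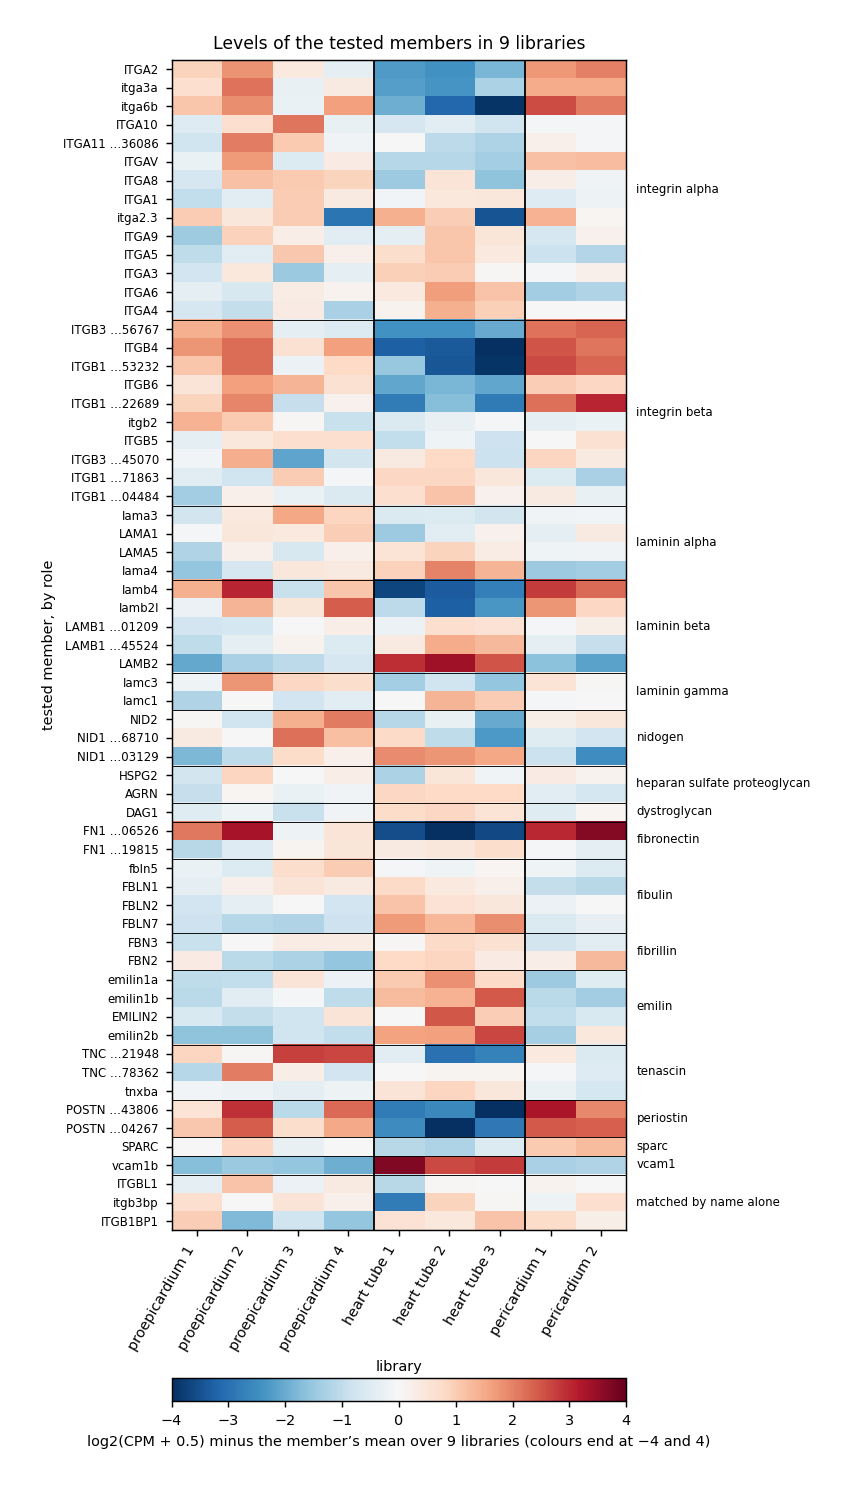
Level of 63 of the 64 tested members (rows, by role) in each of the 9 libraries (columns), as log2(CPM + 0.5) minus that member's mean over the libraries, from blue (low) to red (high). Integrin beta subunits such as ITGB4 and ITGB6 are blue in all 3 heart tubes, whereas vcam1b and LAMB2 are red there.

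Among the receptors, no integrin subunit was called lower in proepicardium than heart tube (12.7% of all genes were). ITGA3 and ITGA4, listed after their values were seen, lay lower there without a call (edgeR adjusted p = 0.0933 and 0.0747). So did ITGA6 and ITGB1 ENSDARG00000104484 (edgeR adjusted p = 0.0739 and 0.0532), which DESeq2 and limma-voom did call lower. ITGA10 and ITGB5 lay higher without one (0.0537 and 0.0765). Of 14 tested alpha subunits (17 members), 4 were called higher in the proepicardium, and of 10 tested beta subunits (12 members), 5 were, where 16.8% of all genes were. Between heart tube and pericardium, 4 alpha and 5 beta subunits were called lower in the heart tube (16.1% of all genes), and 2 alpha and 1 beta subunits higher (11%).

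itga6b, the alpha partner of ITGB4 in laminin-binding epithelial integrins, stood at 55.8, 94.3, 21.2 and 81.4 CPM in proepicardium 1 to 4, 6.25, 2.49 and 1.22 in heart tube 1 to 3 and 157 and 108 in pericardium 1 and 2. Its lowest value outside the heart tube, in proepicardium 3, was above all 3 heart tubes. The log2 difference was 4.23 ± 0.67 (adjusted p = 0.000942) for proepicardium minus heart tube and -5.30 ± 0.73 (adjusted p = 0.000529) for heart tube minus pericardium. ITGA2, a collagen-binding alpha subunit, was measured at 4.45, 8.8, 3.01 and 1.55 CPM in proepicardium 1 to 4, 0.0553, 0 and 0.245 in heart tube 1 to 3 and 8.43 and 10.3 in pericardium 1 and 2. The heart tube libraries held at most 3 counts each, so the proepicardium mean was at least 18.2-fold higher and the pericardium mean at least 38.4-fold higher than a heart tube at 3 counts, the limit being that of the shallowest heart tube library (adjusted p = 0.00128 and 0.000743 for the 2 comparisons). For itga3a, a laminin-binding subunit, the libraries gave 3.55, 11, 1.6 and 2.76 CPM in proepicardium 1 to 4, 0.0553, 0 and 0.571 in heart tube 1 to 3 and 6.72 and 6.61 in pericardium 1 and 2. Heart tube values were again below all others. Differences for itga3a were 4.55 ± 1.06 (adjusted p = 0.00762) for proepicardium minus heart tube and -5.05 ± 1.13 (adjusted p = 0.00677) for heart tube minus pericardium. ITGAV, which pairs with several beta subunits to bind fibronectin and other ligands with the tripeptide RGD, was named after its values were seen, and gave 9.87, 40.5, 8.11 and 15.1 CPM in proepicardium 1 to 4, 5.2, 5.19 and 4.4 in heart tube 1 to 3 and 27.9 and 29.1 in pericardium 1 and 2. Every heart tube value was below every other value. Differences for ITGAV were 1.90 ± 0.53 (adjusted p = 0.018) for proepicardium minus heart tube and -2.53 ± 0.59 (adjusted p = 0.00824) for heart tube minus pericardium. The proepicardium call was lost without heart tube 2 (adjusted p = 0.0528) and without heart tube 3 (adjusted p = 0.0654).

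Other alpha subunits had their higher values in the heart tube. ITGA6, listed apart from itga6b, stood at 1.01, 0.747, 1.9 and 1.66 CPM in proepicardium 1 to 4, 2.05, 5.74 and 3.83 in heart tube 1 to 3 and 0.251 and 0.348 in pericardium 1 and 2. Both pericardium values were the lowest of all 9. Differences for ITGA6 were -1.54 ± 0.60 (adjusted p = 0.0739) for proepicardium minus heart tube and 3.68 ± 0.87 (adjusted p = 0.00873) for heart tube minus pericardium. The heart tube to pericardium call was lost without pericardium 1 (adjusted p = 0.091) and without pericardium 2 (adjusted p = 0.0719), and without heart tube 1 the proepicardium difference was called (adjusted p = 0.0412), as it was by DESeq2 (0.0326) and limma-voom (0.0442). ITGA5, the alpha subunit of the classical fibronectin receptor, was named after its values were seen and gave 19.5, 28.5, 84.4 and 46.1 CPM in proepicardium 1 to 4, 64.4, 86.8 and 52 in heart tube 1 to 3 and 21.6 and 17.1 in pericardium 1 and 2. Proepicardium 3 and 4 lay near the heart tubes and proepicardium 1 and 2 near the pericardium. Differences for ITGA5 were -0.60 ± 0.44 (adjusted p = 0.336) for proepicardium minus heart tube and 1.81 ± 0.56 (adjusted p = 0.0333) for heart tube minus pericardium. The pericardium call was lost without heart tube 2 (adjusted p = 0.0763), pericardium 1 (0.105) or pericardium 2 (0.196), and without proepicardium 3 the proepicardium difference was called (0.0414). The alpha subunit with the highest mean CPM, not scaled by length, among those called in neither comparison was itga2.3, at 12.1, 8.13, 12.2 and 0.331 CPM in proepicardium 1 to 4, 16.4, 12 and 0.0815 in heart tube 1 to 3 and 16.2 and 6.17 in pericardium 1 and 2. Its values ran over the same wide range in the proepicardium and the heart tube, and its direction turned with single libraries.

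ITGB4, the beta subunit of the hemidesmosome that anchors epithelial cells to laminin, gave 64.6, 89.3, 28.6 and 59.9 CPM in proepicardium 1 to 4, 1.49, 1.38 and 0.489 in heart tube 1 to 3 and 110.2 and 84.8 in pericardium 1 and 2. The lowest of the other libraries, proepicardium 3, was far above the highest heart tube. Differences for ITGB4 were 5.72 ± 0.54 (adjusted p = 3.54e-05) for proepicardium minus heart tube and -6.41 ± 0.58 (adjusted p = 4.9e-05) for heart tube minus pericardium. ITGB6, an epithelial partner of the alpha v subunit, stood at 5.53, 12.7, 10.3 and 5.96 CPM in proepicardium 1 to 4, 0.498, 0.691 and 0.489 in heart tube 1 to 3 and 7.87 and 6.95 in pericardium 1 and 2. Its heart tube values were close together and below all others. Differences for ITGB6 were 3.93 ± 0.51 (adjusted p = 0.000222) for proepicardium minus heart tube and -3.71 ± 0.54 (adjusted p = 0.000569) for heart tube minus pericardium. ITGB3, a partner of the alpha v subunit, has 2 copies among the members. The copy ENSDARG00000056767 gave 6.6, 8.88, 1.54 and 1.33 CPM in proepicardium 1 to 4, 0, 0 and 0.163 in heart tube 1 to 3 and 11.4 and 13 in pericardium 1 and 2. With at most 3 counts in each heart tube, the proepicardium mean was at least 18.7-fold and the pericardium mean at least 49.7-fold higher (adjusted p = 0.00159 and 0.000789). The other copy, ENSDARG00000045070, gave 2.54, 8.38, 0.246 and 1.44 CPM in proepicardium 1 to 4, 3.65, 5.12 and 1.3 in heart tube 1 to 3 and 5.37 and 3.65 in pericardium 1 and 2, its groups overlapped and it was called in neither comparison.

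The most widely used beta subunit, ITGB1, which pairs with many alpha subunits, is present as 4 copies. The copy ENSDARG00000022689 stood at 13.5, 29.1, 3.5 and 8.17 CPM in proepicardium 1 to 4, 0.608, 1.87 and 0.571 in heart tube 1 to 3 and 34.6 and 62.7 in pericardium 1 and 2. The copy ENSDARG00000053232 stood at 15.8, 35.6, 5.96 and 12.7 CPM in proepicardium 1 to 4, 2.16, 0.207 and 0 in heart tube 1 to 3 and 46.7 and 38 in pericardium 1 and 2. Both were lower in every heart tube than in any other library. Differences for ENSDARG00000022689 were 3.73 ± 0.76 (adjusted p = 0.00439) for proepicardium minus heart tube and -5.57 ± 0.86 (adjusted p = 0.00105) for heart tube minus pericardium. Differences for ENSDARG00000053232 were 4.38 ± 1.06 (adjusted p = 0.0126) for proepicardium minus heart tube and -5.65 ± 1.16 (adjusted p = 0.00641) for heart tube minus pericardium. In contrast, ENSDARG00000071863 gave 11.6, 8.8, 31.7 and 14.7 CPM in proepicardium 1 to 4, 28.3, 28.1 and 21.4 in heart tube 1 to 3 and 10.4 and 6.08 in pericardium 1 and 2, with the heart tube above the pericardium and within the range of the proepicardium. Its differences were -0.63 ± 0.42 (adjusted p = 0.29) for proepicardium minus heart tube and 1.64 ± 0.54 (adjusted p = 0.0406) for heart tube minus pericardium. That pericardium call was lost on leaving out proepicardium 4, heart tube 1, 2 or 3, or pericardium 1 or 2 (adjusted p = 0.0518 to 0.269), and without proepicardium 3 the proepicardium difference was called (0.0277). For ENSDARG00000104484 the values were 4.68, 15.2, 10.9 and 8.73 CPM in proepicardium 1 to 4, 21.2, 29.7 and 15 in heart tube 1 to 3 and 17.2 and 10.7 in pericardium 1 and 2. Proepicardium 2 was just above heart tube 3 and the other proepicardium libraries were below the heart tubes. Differences for ENSDARG00000104484 were -1.15 ± 0.41 (adjusted p = 0.0532) for proepicardium minus heart tube and 0.65 ± 0.50 (adjusted p = 0.385) for heart tube minus pericardium. The proepicardium difference was called without proepicardium 2 (adjusted p = 0.0257) and without heart tube 3 (0.0486), and with all libraries by DESeq2 (0.0381), limma-voom (0.0382) and limma on the deposited table (0.0447).

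The integrins that were low in the heart tube had their high values in the proepicardium and the pericardium, the tissues with the most epidermal marker counts. Within the proepicardium the library with the lowest epidermal share, proepicardium 3 at 1.28%, had the lowest FN1 ENSDARG00000006526 and the lowest value of 6 of the 9 integrins called higher in proepicardium than heart tube, among them ITGB4 and itga6b. The exceptions were ITGA2 and ITGB3 ENSDARG00000056767, lowest in proepicardium 4, and ITGB6, lowest in proepicardium 1. The epidermal share is mostly krt4 and cyt1, and the epidermal row cdh1 had 3123, 4182, 6313 and 3931 counts in proepicardium 1 to 4. Of the same 9 integrins, 4 had their highest heart tube value in heart tube 1. The matching shares among all genes called higher in proepicardium were not counted. Whether either count differs from genes in general therefore cannot be judged. Heart tube 1, with 0.601% epidermal counts against 0.0242% and 0.0275%, had the highest itga6b of the heart tubes but a value of ITGB4 close to that of heart tube 2. Without heart tube 1, ITGB4, itga6b, ITGB6 and ITGA2 remained called in both comparisons. How far skin cells carried over with the dissected tissue enter these levels was not tested.

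**Figure D2:**
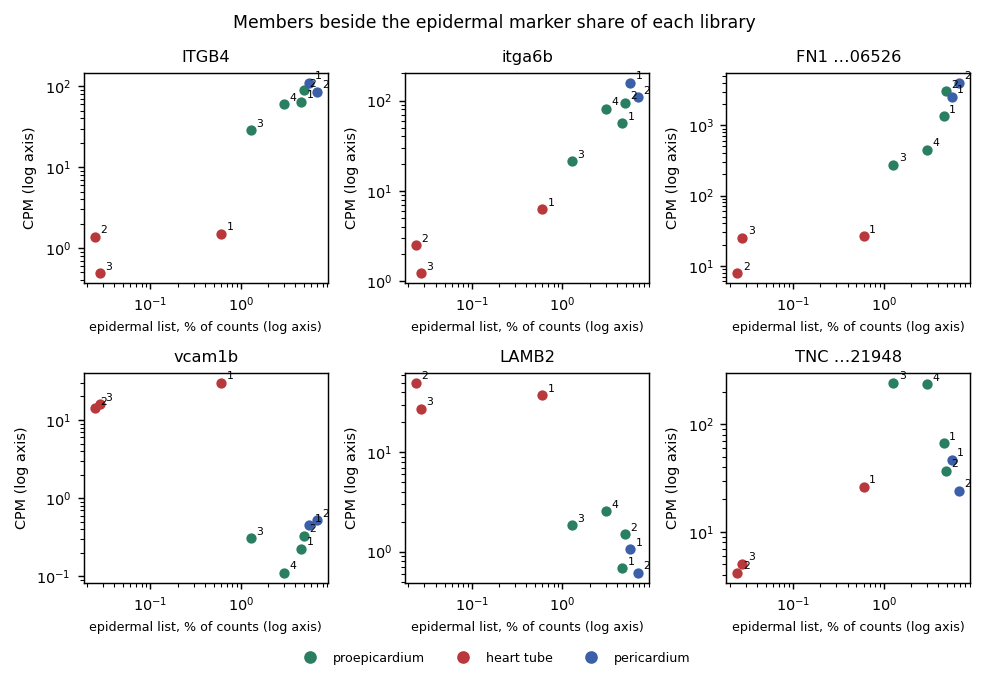
CPM of 6 members (vertical, log axis) against the share of each library's counts in 9 epidermal markers (horizontal, log axis), 1 point per library, numbered by replicate and coloured by tissue. ITGB4, itga6b and FN1 ENSDARG00000006526 are high in the libraries with 1.28% or more epidermal counts, vcam1b and LAMB2 are high in the 3 heart tubes, and TNC ENSDARG00000021948 is highest in proepicardium 3 and 4.

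Laminin chains, the ligands of these receptors, went in both directions, and the sign depended on the chain. Of 4 tested alpha chains, 1 was called lower in proepicardium than heart tube. Of 5 beta chains, 2 were higher there and 2 lower by the same test, where 16.8% and 12.7% of all genes were.

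LAMB2, the beta chain of the laminins of muscle and vessel basement membranes, gave 0.677, 1.49, 1.84 and 2.54 CPM in proepicardium 1 to 4, 37.4, 50.3 and 27.2 in heart tube 1 to 3 and 1.05 and 0.608 in pericardium 1 and 2. All heart tube values were above all others, and the differences of -4.57 ± 0.46 (adjusted p = 4.8e-05) for proepicardium minus heart tube and 5.48 ± 0.65 (adjusted p = 0.000184) for heart tube minus pericardium were the largest among the laminin chains called lower in the proepicardium. The alpha chain lama4, typical of vessel and heart muscle basement membranes, stood at 5.13, 9.79, 22.1 and 20.5 CPM in proepicardium 1 to 4, 30.8, 64.8 and 41.7 in heart tube 1 to 3 and 5.47 and 5.82 in pericardium 1 and 2. Its heart tube values were the 3 highest, proepicardium 3 and 4 came next and the pericardium was low. Differences for lama4 were -1.67 ± 0.46 (adjusted p = 0.0179) for proepicardium minus heart tube and 3.02 ± 0.63 (adjusted p = 0.00455) for heart tube minus pericardium. The proepicardium call was lost without heart tube 2 (adjusted p = 0.0826). The LAMB1 copy ENSDARG00000045524 gave 4.34, 6.89, 10.2 and 6.19 CPM in proepicardium 1 to 4, 12.1, 26.6 and 23.6 in heart tube 1 to 3 and 6.87 and 4.69 in pericardium 1 and 2. All heart tube values were above all others. Differences for ENSDARG00000045524 were -1.58 ± 0.39 (adjusted p = 0.0106) for proepicardium minus heart tube and 1.84 ± 0.50 (adjusted p = 0.0185) for heart tube minus pericardium, the pericardium call being lost without pericardium 1 (adjusted p = 0.058) or pericardium 2 (0.156). The gamma chain lamc1, common to most laminins, gave 7.1, 17.3, 9.76 and 12.2 CPM in proepicardium 1 to 4, 17.3, 44.7 and 34.6 in heart tube 1 to 3 and 16.4 and 17.3 in pericardium 1 and 2. Heart tube 1 lay among the other tissues and heart tube 2 and 3 above them. Differences for lamc1 were -1.48 ± 0.38 (adjusted p = 0.0131) for proepicardium minus heart tube and 0.93 ± 0.47 (adjusted p = 0.172) for heart tube minus pericardium. Without heart tube 2 the proepicardium call was lost (adjusted p = 0.0566), and limma-voom called the pericardium difference (0.0189).

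Other chains were higher in the proepicardium. For lamb4, a beta chain, the values were 18.7, 57.9, 3.32 and 15 CPM in proepicardium 1 to 4, 0.0553, 0.207 and 0.571 in heart tube 1 to 3 and 49 and 33.7 in pericardium 1 and 2. Heart tube values were all below 1 CPM and the lowest other value was that of proepicardium 3. Differences for lamb4 were 6.48 ± 1.11 (adjusted p = 0.00204) for proepicardium minus heart tube and -7.28 ± 1.18 (adjusted p = 0.00171) for heart tube minus pericardium. The beta chain lamb2l, named after its values were seen, gave 4.74, 15.2, 8.04 and 32.8 CPM in proepicardium 1 to 4, 2.49, 0.138 and 0.734 in heart tube 1 to 3 and 20.5 and 10.5 in pericardium 1 and 2, and again the heart tube was lowest. Its differences were 3.71 ± 0.92 (adjusted p = 0.0121) for proepicardium minus heart tube and -3.75 ± 0.98 (adjusted p = 0.0169) for heart tube minus pericardium, the pericardium call being lost without heart tube 3 (adjusted p = 0.0501), pericardium 1 (0.133) or pericardium 2 (0.0543). The gamma chain lamc3 stood at 1.64, 7.63, 3.75 and 3.42 CPM in proepicardium 1 to 4, 0.442, 0.899 and 0.326 in heart tube 1 to 3 and 3.06 and 2 in pericardium 1 and 2. The heart tube was lowest in each case. Differences for lamc3 were 2.86 ± 0.70 (adjusted p = 0.00984) for proepicardium minus heart tube and -2.17 ± 0.76 (adjusted p = 0.0529) for heart tube minus pericardium, and without proepicardium 1 the pericardium difference was called (adjusted p = 0.044), as it was by DESeq2 (0.0233) and limma-voom (0.0405). LAMA5, the alpha chain of many epithelial and vessel laminins, had the highest mean CPM among the alpha chains called in neither comparison, at 30.2, 80.2, 44.6 and 80.3 CPM in proepicardium 1 to 4, 103, 128 and 85.6 in heart tube 1 to 3 and 61.9 and 63.7 in pericardium 1 and 2. All 3 heart tube values were above all others, but neither difference passed the threshold. The LAMB1 copy ENSDARG00000101209 was likewise not called, at 18.5, 19.1, 31.6 and 37.9 CPM in proepicardium 1 to 4, 26.6, 50.3 and 47.5 in heart tube 1 to 3 and 30.8 and 36.9 in pericardium 1 and 2. Groups overlapped between proepicardium and heart tube for the latter. The alpha chain lama3, also named after its values were seen, had at most 1 count in each heart tube, 0 to 1.90 CPM in the proepicardium and 0.251 to 0.261 CPM in the pericardium, and was not called. The beta chain lamb3 was under the limit of 10 counts in all.

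**Figure D3:**
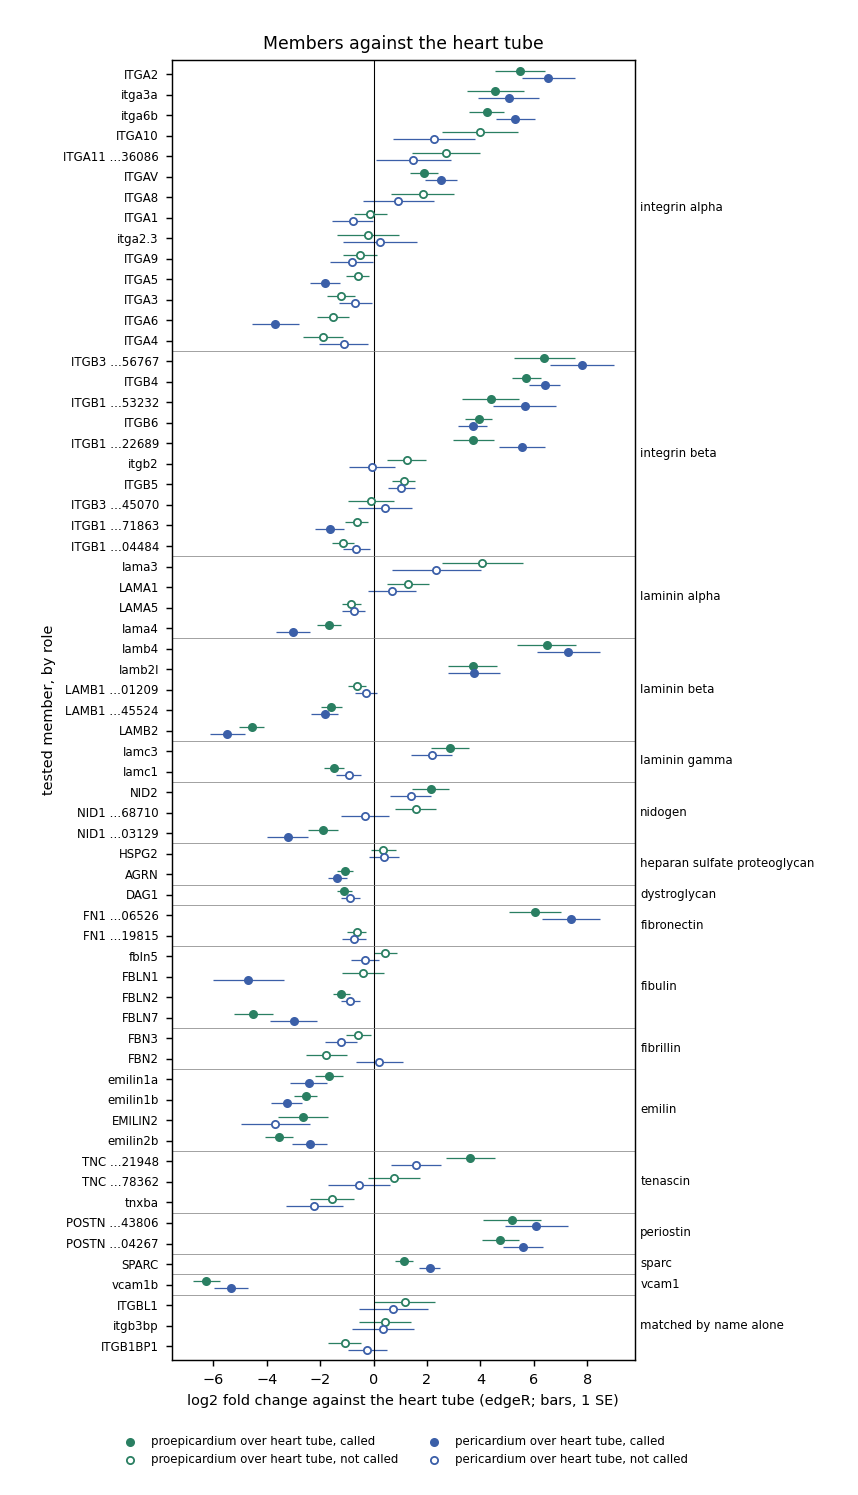
Log2 difference of 63 of the 64 tested members, as proepicardium minus heart tube (green) and pericardium minus heart tube (blue), with bars of 1 SE and filled points for called members. The blue points have the opposite sign to the values in the text, which are heart tube minus pericardium. All 9 called integrin points in the proepicardium lie to the right of 0, all 4 emilins lie to the left, and laminin chains lie on both sides.

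Of 3 tested nidogens, linkers of the laminin network, 1 was called higher in the proepicardium (16.8% of all genes) and 1 lower (12.7%). The NID1 copy ENSDARG00000103129 gave 14.7, 25.7, 87.1 and 59.9 CPM in proepicardium 1 to 4, 195, 178 and 152 in heart tube 1 to 3 and 28.5 and 8.87 in pericardium 1 and 2. All heart tube values were the highest, and proepicardium 3 and 4 came next. Differences for ENSDARG00000103129 were -1.90 ± 0.57 (adjusted p = 0.0268) for proepicardium minus heart tube and 3.22 ± 0.78 (adjusted p = 0.0107) for heart tube minus pericardium. The proepicardium call was lost without proepicardium 2 (adjusted p = 0.0646), heart tube 1 (0.0564) or heart tube 2 (0.0574), and the pericardium call without pericardium 2 (0.0961). The NID1 copy ENSDARG00000068710 gave 10.9, 8.46, 40.8 and 20.2 CPM in proepicardium 1 to 4, 14.9, 3.94 and 1.3 in heart tube 1 to 3 and 5.97 and 4.78 in pericardium 1 and 2. Heart tube 1 was above the other heart tubes and within the proepicardium range. Differences for ENSDARG00000068710 were 1.57 ± 0.77 (adjusted p = 0.154) for proepicardium minus heart tube and 0.33 ± 0.90 (adjusted p = 0.835) for heart tube minus pericardium. Without heart tube 1, the proepicardium difference was 2.96 and was called (adjusted p = 0.0125), and limma-voom called it with all libraries (0.0245). NID2 stood at 17.6, 9.71, 46.9 and 74.3 CPM in proepicardium 1 to 4, 7.41, 14 and 3.83 in heart tube 1 to 3 and 20.1 and 23.8 in pericardium 1 and 2, with proepicardium 3 and 4 above all other libraries. Its differences were 2.14 ± 0.68 (adjusted p = 0.0379) for proepicardium minus heart tube and -1.38 ± 0.75 (adjusted p = 0.211) for heart tube minus pericardium, and the proepicardium call was lost without proepicardium 3, proepicardium 4, heart tube 1, heart tube 3, pericardium 1 or pericardium 2 (adjusted p = 0.0666 to 0.109). That call was also lost with limma-voom (0.0596) and in a fit of the 2 tissues only (0.0543).

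AGRN, a heparan sulfate proteoglycan that binds laminin and dystroglycan, gave 70.5, 144, 112 and 122 CPM in proepicardium 1 to 4, 239, 234 and 233 in heart tube 1 to 3 and 101 and 83 in pericardium 1 and 2. The 3 heart tubes were close together and above all other libraries. Differences for AGRN were -1.07 ± 0.29 (adjusted p = 0.0162) for proepicardium minus heart tube and 1.36 ± 0.37 (adjusted p = 0.0169) for heart tube minus pericardium. The pericardium call was lost without pericardium 1 (adjusted p = 0.0627) or pericardium 2 (0.147). HSPG2, which encodes perlecan, ranged over 6.54, 20.6, 11.4 and 13.5 CPM in proepicardium 1 to 4, 4.37, 15.8 and 10 in heart tube 1 to 3 and 14.2 and 12.3 in pericardium 1 and 2. The 3 tissues overlapped and it was called in neither comparison.

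Dystroglycan (DAG1), the non-integrin laminin and agrin receptor of muscle and other cells, stood at 60.4, 74.7, 45.3 and 76.5 CPM in proepicardium 1 to 4, 139.6, 149.8 and 124 in heart tube 1 to 3 and 60.6 and 89.4 in pericardium 1 and 2. Every heart tube value was above every other value. The differences were -1.10 ± 0.29 (adjusted p = 0.0134) for proepicardium minus heart tube and 0.88 ± 0.35 (adjusted p = 0.0876) for heart tube minus pericardium. The pericardium difference was called with a mean count of at least 50 (adjusted p = 0.0467), by limma-voom (0.0146) and in a fit of the 2 tissues only (0.0449). Its partners, a list of 26 genes of the dystrophin complex and of the enzymes that glycosylate dystroglycan, had 21 tested. Called lower in proepicardium than heart tube were 7 (12.7% of all genes were), and called higher was none (16.8% of all genes). Against the pericardium, 7 were called higher in heart tube (11% of all genes) and none lower (16.1%). The former count fell when either pericardium library was left out, and so did the share of all genes called. The median log2 difference of the list was -1.18 between proepicardium and heart tube, where the median of all genes was 0.17. The lowest p-values were those of the sarcoglycan gene SGCB, the dystrobrevin gene dtnba and the sarcospan gene SSPN, all encoding parts of that complex. SGCB gave 0.789, 0.166, 1.35 and 1.1 CPM in proepicardium 1 to 4, 6.52, 15.6 and 25.7 in heart tube 1 to 3 and 0.702 and 0.782 in pericardium 1 and 2, a proepicardium difference of -4.20 ± 0.64 (adjusted p = 0.000621). For dtnba the values were 6.37, 9.96, 14.6 and 10.5 CPM in proepicardium 1 to 4, 35.9, 58.4 and 33.9 in heart tube 1 to 3 and 11.4 and 6.87 in pericardium 1 and 2, a proepicardium difference of -2.04 ± 0.36 (adjusted p = 0.00142). SSPN gave 0.338, 0.249, 1.04 and 0.552 CPM in proepicardium 1 to 4, 4.64, 4.63 and 6.93 in heart tube 1 to 3 and 0.251 and 0.261 in pericardium 1 and 2, a proepicardium difference of -3.28 ± 0.62 (adjusted p = 0.00243). In each of the 3 genes the heart tube lay above all other libraries, as did the cardiomyocyte markers.

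Of the 5 tested rows of FN1, POSTN and SPARC, genes of connective tissue matrix, 4 were called lower in the heart tube in both comparisons. Of all genes, 16.8% were called lower in heart tube than proepicardium and 16.1% lower than pericardium. The share called lower in both was not counted. FN1, encoding fibronectin, an RGD-containing ligand on which cells spread and migrate, is listed as 2 copies. The copy ENSDARG00000006526 gave 1351, 3051, 273 and 449 CPM in proepicardium 1 to 4, 26.2, 7.81 and 25 in heart tube 1 to 3 and 2558 and 4041 in pericardium 1 and 2. Heart tube values were the lowest by a wide margin, and within the proepicardium libraries 1 and 2 lay above 3 and 4. The differences were 6.03 ± 0.98 (adjusted p = 0.00144) for proepicardium minus heart tube and -7.39 ± 1.07 (adjusted p = 0.000917) for heart tube minus pericardium. The copy ENSDARG00000019815 gave 24.6, 37.6, 58.6 and 75.9 CPM in proepicardium 1 to 4, 68.6, 73 and 87.6 in heart tube 1 to 3 and 50.8 and 40.7 in pericardium 1 and 2. Its proepicardium and heart tube values overlapped. Differences for ENSDARG00000019815 were -0.64 ± 0.36 (adjusted p = 0.214) for proepicardium minus heart tube and 0.74 ± 0.44 (adjusted p = 0.255) for heart tube minus pericardium.

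POSTN encodes periostin, a secreted protein that binds integrins and collagen in fibrous tissue. The copy ENSDARG00000104267 stood at 667, 1708, 514 and 919 CPM in proepicardium 1 to 4, 54.8, 8.44 and 43.1 in heart tube 1 to 3 and 1735 and 1680.4 in pericardium 1 and 2. The copy ENSDARG00000043806 stood at 33.3, 177, 10.4 and 111 CPM in proepicardium 1 to 4, 2.82, 3.39 and 0.571 in heart tube 1 to 3 and 225 and 88.5 in pericardium 1 and 2. In both copies the heart tube was below every other library. Differences for ENSDARG00000104267 were 4.75 ± 0.70 (adjusted p = 0.000598) for proepicardium minus heart tube and -5.59 ± 0.76 (adjusted p = 0.000462) for heart tube minus pericardium. Differences for ENSDARG00000043806 were 5.18 ± 1.09 (adjusted p = 0.0067) for proepicardium minus heart tube and -6.10 ± 1.18 (adjusted p = 0.0049) for heart tube minus pericardium. SPARC, a collagen-binding matrix protein, gave 511, 900.3, 409 and 512 CPM in proepicardium 1 to 4, 236, 214 and 343 in heart tube 1 to 3 and 1046 and 1226 in pericardium 1 and 2. Heart tube values were lowest and pericardium values highest. Differences for SPARC were 1.14 ± 0.34 (adjusted p = 0.0259) for proepicardium minus heart tube and -2.10 ± 0.39 (adjusted p = 0.00252) for heart tube minus pericardium. Its proepicardium call was lost without proepicardium 2 (adjusted p = 0.0767), heart tube 1 (0.0825), heart tube 2 (0.115) or pericardium 1 (0.0555). The related sparcl1 was too low to test, at 0 to 0.348 CPM. Summed fibroblast and mesenchyme markers were lower in the heart tube (95.6 to 122 CPM) than in the proepicardium (890.1 to 1863 CPM) and the pericardium (1334 to 1924 CPM). All 5 marker rows were called higher in proepicardium than heart tube (16.8% of all genes were). Of the 5, only COL1A2 was called lower in heart tube than pericardium, and it made up most of each sum, at 531 to 1747 CPM in the proepicardium, 53.1 to 70.5 in the heart tube and 1288 to 1800.2 in the pericardium. PDGFRA stood at 18.1 to 28.1 CPM in the heart tube and 15.6 to 24 in the pericardium. The part of such cells in these results was not tested.

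Tenascin C, a large glycoprotein of matrix under remodelling, is listed as 2 copies of TNC. The copy ENSDARG00000021948 gave 66.3, 37, 244 and 235 CPM in proepicardium 1 to 4, 26.3, 4.15 and 5.06 in heart tube 1 to 3 and 47 and 24.2 in pericardium 1 and 2. Proepicardium 3 and 4 were far above the rest, proepicardium 2 lay within the pericardium range, and heart tube 1 was above the other heart tubes. The differences were 3.61 ± 0.92 (adjusted p = 0.0156) for proepicardium minus heart tube and -1.58 ± 0.94 (adjusted p = 0.258) for heart tube minus pericardium. Without heart tube 1 the heart tube to pericardium difference was -2.90 and was called (adjusted p = 0.0275), and limma-voom called it with all libraries (0.0353). The copy ENSDARG00000078362 gave 0.226, 6.06, 1.41 and 0.442 CPM in proepicardium 1 to 4, 1.11, 1.24 and 1.22 in heart tube 1 to 3 and 1 and 0.608 in pericardium 1 and 2, and tnxba, a tenascin X gene, 0.395, 0.332, 0.246 and 0.331 CPM in proepicardium 1 to 4, 0.885, 1.24 and 0.815 in heart tube 1 to 3 and 0.301 and 0.0869 in pericardium 1 and 2. Neither was called by edgeR, and limma-voom called tnxba between heart tube and pericardium (adjusted p = 0.0283). Within the proepicardium, libraries 3 and 4 were the highest in TNC ENSDARG00000021948, NID2 and both NID1 copies, and they were also those with the lower FN1 ENSDARG00000006526 and the lower epidermal share. Their erythroid marker share was the higher, at 0.196% and 0.180% against 0.0561% and 0.0384% in proepicardium 1 and 2. So was their proepicardial and epicardial marker share, at 0.00468% and 0.00355% against 0.00166% and 0.00121%. Their skeletal muscle marker share was higher too, at 0.0524% and 0.0263% against 0.0105% and 0.0118%. Counts of its row MYOD1, not scaled for depth, were 437, 197, 1711 and 273 in proepicardium 1 to 4. Not every list divided the libraries this way, the fibroblast and mesenchyme share being 0.0898%, 0.200%, 0.0944% and 0.0955%. The part of the cells with such markers in these values was not tested.

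Of the proteins of elastic fibres and their surroundings, none was called higher in proepicardium than heart tube (16.8% of all genes were). Emilins are glycoproteins of elastic fibres and of the cardiac and vascular matrix. All 4 members were called lower in the proepicardium, where 12.7% of all genes were. For 1 of them, EMILIN2, the call was at the edge of the threshold. The copy emilin1b stood at 2.71, 4.4, 5.89 and 2.87 CPM in proepicardium 1 to 4, 15.6, 17.1 and 36.8 in heart tube 1 to 3 and 2.71 and 2.09 in pericardium 1 and 2. All 3 heart tube values were above those of every other library. Differences for emilin1b were -2.54 ± 0.43 (adjusted p = 0.00116) for proepicardium minus heart tube and 3.26 ± 0.58 (adjusted p = 0.00182) for heart tube minus pericardium. For emilin2b the values were 1.47, 1.49, 2.95 and 2.54 CPM in proepicardium 1 to 4, 18.1, 18.4 and 37.9 in heart tube 1 to 3 and 1.91 and 7.65 in pericardium 1 and 2. Its heart tube values were above all others. Differences for emilin2b were -3.55 ± 0.53 (adjusted p = 0.000526) for proepicardium minus heart tube and 2.39 ± 0.65 (adjusted p = 0.0175) for heart tube minus pericardium, and the pericardium call was lost without heart tube 3 (adjusted p = 0.0609) or pericardium 1 (0.117). The copy emilin1a stood at 2.14, 2.24, 7.25 and 4.09 CPM in proepicardium 1 to 4, 10.7, 18.7 and 8.64 in heart tube 1 to 3 and 1.45 and 3.3 in pericardium 1 and 2. The heart tube was again highest. Differences for emilin1a were -1.69 ± 0.52 (adjusted p = 0.0304) for proepicardium minus heart tube and 2.43 ± 0.69 (adjusted p = 0.0222) for heart tube minus pericardium. Its proepicardium call was lost without proepicardium 1, 2 or 4 or heart tube 2 (adjusted p = 0.0625 to 0.134), and its pericardium call without heart tube 2 (0.0637), pericardium 1 (0.158) or pericardium 2 (0.0558). EMILIN2, named after its values were seen, gave 0.338, 0.166, 0.246 and 1.33 CPM in proepicardium 1 to 4, 0.774, 6.71 and 2.04 in heart tube 1 to 3 and 0.15 and 0.348 in pericardium 1 and 2. Proepicardium 4 lay above heart tube 1, so the groups overlapped. Differences for EMILIN2 were -2.65 ± 0.93 (adjusted p = 0.05) for proepicardium minus heart tube and 3.68 ± 1.29 (adjusted p = 0.0535) for heart tube minus pericardium. Its proepicardium call was lost with DESeq2 size factors (adjusted p = 0.0514), upper-quartile factors (0.0531), no filter (0.0518), limma on the deposited table (0.0523) and a fit of the 2 tissues only (0.0658). It was also lost without proepicardium 1, 2 or 3, heart tube 2 or 3, or pericardium 1 or 2 (0.0637 to 0.337). Its pericardium difference was called by DESeq2 (0.00844), limma-voom (0.0071) and limma on the deposited table (0.0455), and without proepicardium 2 (0.047), proepicardium 4 (0.0376) or heart tube 1 (0.0234).

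Of 4 fibulins, secreted proteins that bridge elastic fibres and basement membranes, 2 were called lower in the proepicardium (12.7% of all genes were). FBLN7 gave 0.226, 0.083, 0.0614 and 0.221 CPM in proepicardium 1 to 4, 3.65, 2.7 and 4.16 in heart tube 1 to 3 and 0.351 and 0.522 in pericardium 1 and 2. The heart tube values were highest. Differences for FBLN7 were -4.51 ± 0.73 (adjusted p = 0.000929) for proepicardium minus heart tube and 3.00 ± 0.87 (adjusted p = 0.0235) for heart tube minus pericardium, the pericardium call being lost without heart tube 3 (adjusted p = 0.0571), pericardium 1 (0.177) or pericardium 2 (0.135). FBLN2 gave 18.3, 24.4, 32.1 and 18.3 CPM in proepicardium 1 to 4, 70.1, 47.3 and 43.6 in heart tube 1 to 3 and 27 and 31.8 in pericardium 1 and 2. Heart tube values were again the highest. Differences for FBLN2 were -1.20 ± 0.30 (adjusted p = 0.011) for proepicardium minus heart tube and 0.87 ± 0.37 (adjusted p = 0.107) for heart tube minus pericardium, the proepicardium call being lost without heart tube 1 (adjusted p = 0.0503) and the pericardium difference being called by limma-voom (0.0415). FBLN1 stood at 0.338, 0.747, 1.04 and 0.884 CPM in proepicardium 1 to 4, 1.33, 0.899 and 0.734 in heart tube 1 to 3 and 0.0502 and 0 in pericardium 1 and 2. The pericardium libraries held 1 and 0 counts, so the heart tube mean was at least 3.78-fold and the proepicardium mean at least 2.89-fold higher than a pericardium at 3 counts. The heart tube to pericardium difference was called (adjusted p = 0.0214), but not without pericardium 1 (0.0866) or pericardium 2 (0.168). The fibulin fbln5 was called in neither comparison, at 7.16, 5.81, 14.7 and 18.2 CPM in proepicardium 1 to 4, 8.52, 7.74 and 9.22 in heart tube 1 to 3 and 7.77 and 5.82 in pericardium 1 and 2, and the same was true of FBN3, a fibrillin gene, at 1.8, 3.82, 4.79 and 4.75 CPM in proepicardium 1 to 4, 3.98, 6.78 and 6.12 in heart tube 1 to 3 and 2.11 and 2.69 in pericardium 1 and 2, although limma-voom called FBN3 between heart tube and pericardium (adjusted p = 0.0257).

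VCAM1, a cell surface ligand of integrins that contain the alpha 4 subunit, is listed as vcam1a and vcam1b. The copy vcam1b gave 0.226, 0.332, 0.307 and 0.11 CPM in proepicardium 1 to 4, 30.1, 14 and 15.8 in heart tube 1 to 3 and 0.451 and 0.522 in pericardium 1 and 2. It had the lowest p-value of all members between proepicardium and heart tube. Differences for vcam1b were -6.27 ± 0.51 (adjusted p = 1.35e-05) for proepicardium minus heart tube and 5.35 ± 0.64 (adjusted p = 0.000197) for heart tube minus pericardium. Its highest value outside the heart tube, in pericardium 2, was far below the lowest heart tube. The copy vcam1a was too low to test, at 0 to 0.435 CPM. ITGA4, the receptor subunit for VCAM1, was called in neither comparison. Endothelial and endocardial markers, summed at 399 to 580 CPM in the heart tube, 44.8 to 166 CPM in the proepicardium and 34.1 to 83.2 CPM in the pericardium, were highest in the same 3 libraries as vcam1b, LAMB2 and lama4. Most of the heart tube sums was cdh5. Of the 7 rows, 5 were called lower in proepicardium than heart tube (12.7% of all genes) and 6 higher in heart tube than pericardium (11%). FLT4 had 15, 47, 47 and 20 counts in proepicardium 1 to 4 and 46, 7 and 10 in heart tube 1 to 3. Cardiomyocyte markers were highest in the same 3 heart tubes, at 3.59% to 4.66% of counts. They made up at most 0.0537% in the proepicardium and 0.00875% in the pericardium. The part of either cell type in the levels of vcam1b, LAMB2 and lama4 was not tested.

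Copies listed under one symbol were compared as ratios, since gene length cancels in the change of a ratio. Of 12 such pairs, 6 of them among the 4 ITGB1 copies, 8 had log2 ratios that did not overlap between proepicardium and heart tube. Of all 1012 such pairs in the table, 36.4% did not overlap. This pair rule was added after the symbol table was seen. By the other pair rule, symbols that differ in a final letter a or b, the members hold 1 pair, emilin1a and emilin1b, whose ratios overlapped, where 33.2% of all such pairs did not. The log2 ratio of FN1 ENSDARG00000006526 to ENSDARG00000019815 averaged 4.22 ± 2.13 (SD, n = 4) over proepicardium libraries, -2.13 ± 0.95 (SD, n = 3) over heart tubes and 6.14 ± 0.69 (SD, n = 2) over pericardium libraries. The difference of 6.35 gave p = 0.0286 in a two-sided exact permutation test, the smallest p that 35 splits allow, and 0.0571 after adjustment over the 12 pairs. For ITGB3, the ratio of ENSDARG00000045070 to ENSDARG00000056767 averaged -0.86 ± 1.06 (SD, n = 4) over proepicardium libraries and 4.10 ± 1.61 (SD, n = 3) over heart tubes, with the same exact p. The copy ENSDARG00000056767 had 0, 0 and 2 counts in heart tube 1 to 3, so the size of the heart tube ratio depends on the prior count of 2. For NID1, the ratio of ENSDARG00000068710 to ENSDARG00000103129 averaged -1.17 ± 0.54 (SD, n = 4) and -5.29 ± 1.52 (SD, n = 3), also with that exact p. For LAMB1, the ratio of ENSDARG00000045524 to ENSDARG00000101209 averaged -1.93 ± 0.51 (SD, n = 4) and -1.02 ± 0.11 (SD, n = 3), with an exact permutation p of 0.0571. The other 4 separated pairs set ITGB1 ENSDARG00000022689 or ENSDARG00000053232 against ENSDARG00000071863 or ENSDARG00000104484, with differences of the log2 ratio of 4.16 to 6.14. ENSDARG00000053232 had 3 and 0 counts in heart tube 2 and 3, so the size of its ratios there also depends on the prior count. The ratios of the POSTN copies and of the TNC copies overlapped between the tissues. No pair passed an adjusted p of 0.05, and this design cannot give a pair a lower adjusted value than its smallest p.

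**Figure D4:**
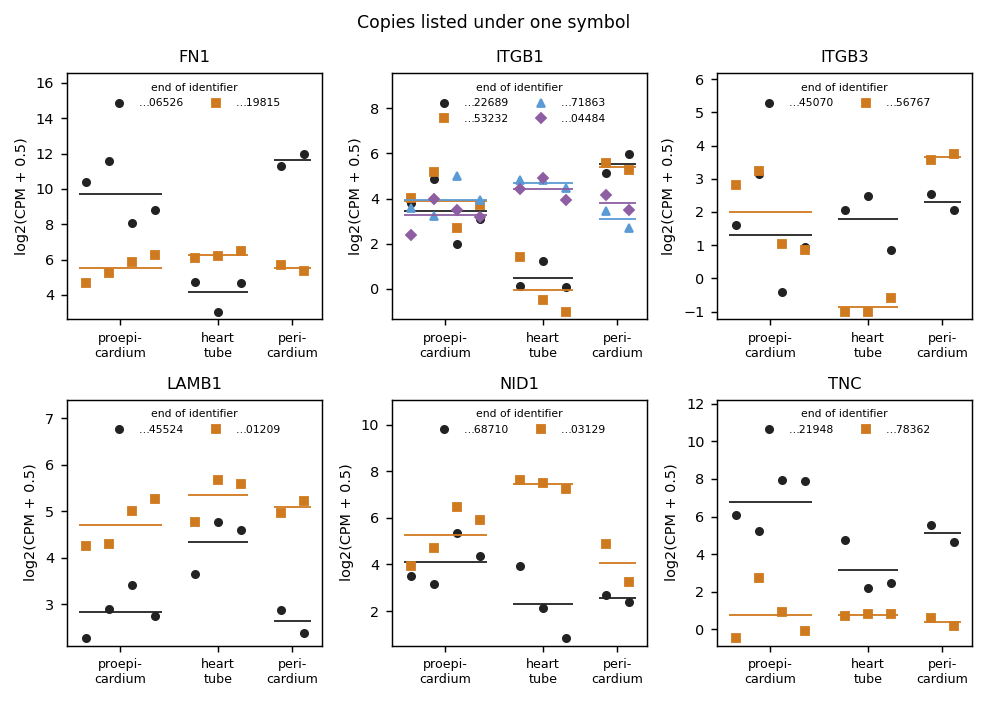
Levels of copies listed under one symbol, as log2(CPM + 0.5) in each library (points) with the mean per tissue (lines), for FN1, ITGB1, ITGB3, LAMB1, NID1 and TNC. FN1 ENSDARG00000006526 is lower in the 3 heart tubes than in any other library and ENSDARG00000019815 is not, and since levels are not scaled by length, heights of different copies are not comparable.

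Inside the cell, integrins act through talins, kindlins, ILK, PINCH, parvins, focal adhesion kinases and tensins. Of 38 rows of such genes, 32 were tested. Called higher in proepicardium than heart tube were 4 (16.8% of all genes were), and 12 were called lower (12.7%). Without proepicardium 1 the called rows numbered 10 in all, where 26.4% of all genes were called in either direction. Between heart tube and pericardium, 8 were called higher in heart tube (11% of all genes) and 6 lower (16.1%). Their number fell when either pericardium library was left out, and so did the share of all genes called. The median log2 difference between proepicardium and heart tube was -0.78 over the list and 0.17 over all genes. PTK2B ENSDARG00000039577, a focal adhesion kinase relative, gave 37.6, 43.6, 17.6 and 22.5 CPM in proepicardium 1 to 4, 1.27, 0.277 and 1.22 in heart tube 1 to 3 and 71.2 and 39.9 in pericardium 1 and 2, a proepicardium difference of 5.02 ± 0.58 (adjusted p = 0.000104). FERMT1, the kindlin of epithelia, gave 23.7, 24.1, 14.9 and 19.4 CPM in proepicardium 1 to 4, 3.7, 0.691 and 0.163 in heart tube 1 to 3 and 37.1 and 37.6 in pericardium 1 and 2, a difference of 3.70 ± 0.74 (adjusted p = 0.00385). PARVA ENSDARG00000043710, a parvin of the ILK complex, gave 12.2, 15.6, 14.1 and 16 CPM in proepicardium 1 to 4, 2.88, 6.57 and 4 in heart tube 1 to 3 and 21.3 and 17.9 in pericardium 1 and 2, a difference of 1.69 ± 0.36 (adjusted p = 0.00445). These 3 were lower in every heart tube than in any other library. In the opposite direction, tns1a, a tensin that joins integrin tails to actin, gave 3.21, 1.16, 4.91 and 4.2 CPM in proepicardium 1 to 4, 108, 101 and 32.8 in heart tube 1 to 3 and 1.1 and 0.869 in pericardium 1 and 2, a difference of -4.57 ± 0.52 (adjusted p = 0.000104). The PINCH gene lims2 gave 0.789, 0.747, 1.29 and 2.43 CPM in proepicardium 1 to 4, 14.4, 10.5 and 12.2 in heart tube 1 to 3 and 0.401 and 0.522 in pericardium 1 and 2, a difference of -3.26 ± 0.50 (adjusted p = 0.000627). The parvin gene PARVB gave 2.88, 2.41, 13 and 8.62 CPM in proepicardium 1 to 4, 99, 76.5 and 75.8 in heart tube 1 to 3 and 2.71 and 0.869 in pericardium 1 and 2, a difference of -3.64 ± 0.59 (adjusted p = 0.00108). Each of the last 3 was higher in every heart tube than in any other library. The other PARVA row, ENSDARG00000035629, listed after its values were seen, was called in the direction opposite to ENSDARG00000043710. It gave 2.14, 0.664, 4.48 and 0.552 CPM in proepicardium 1 to 4, 5.03, 8.5 and 15.8 in heart tube 1 to 3 and 2.26 and 2.43 in pericardium 1 and 2. Its proepicardium difference was -2.28 ± 0.69 (edgeR adjusted p = 0.026).

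Between proepicardium and pericardium no member was called by edgeR, and neither was any of the 17003 genes (0%). At an unadjusted p under 0.05 there were 7 of 64 members, against 4.9% of all genes. DESeq2 called 0 members and limma-voom 0. The libraries did not overlap for 3 members higher in the proepicardium, where 7.65% of all genes were, and for 8 members lower in the proepicardium, where 7.75% were. The 3 higher were FBLN1, ITGA6 and NID1 ENSDARG00000068710. Among the 8 lower were FBLN7, itga6b, SPARC, vcam1b, ITGB3 ENSDARG00000056767 and the ITGB1 copies ENSDARG00000022689 and ENSDARG00000053232, and all of these were listed after their values were seen. The 6 smallest unadjusted p-values were those of FBLN1, ITGA6, ITGB1 ENSDARG00000022689, SPARC, FBN2 and lama4. For FBLN1, given above as a bound, the adjusted p was 0.82. Proepicardium minus pericardium, the log2 difference was 2.14 ± 0.81 (adjusted p = 0.947) for ITGA6. It was -1.84 ± 0.68 (adjusted p = 0.947) for ITGB1 ENSDARG00000022689 and -0.96 ± 0.37 (adjusted p = 0.947) for SPARC. It was 1.35 ± 0.57 (adjusted p = 0.971) for lama4 and -1.97 ± 0.83 (adjusted p = 0.971) for FBN2, a fibrillin gene measured at 2.14, 0.498, 0.368 and 0.221 CPM in proepicardium 1 to 4, 3.1, 3.32 and 2.12 in heart tube 1 to 3 and 2.01 and 4.61 in pericardium 1 and 2. In FBN2, proepicardium 1 lay with the pericardium and the other proepicardium libraries below, and without proepicardium 1 its difference from the heart tube was called (adjusted p = 0.0124), as it was by limma on the deposited table (0.0401).

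The members too low to test were ITGA11 ENSDARG00000007950, itga6l, itgam.1, ITGB8, itgb7, lama2, nid2b, sparcl1 and vcam1a, and they had at most 1.59 CPM in any library. They were listed for completeness and not by the naming rule. The highest of these values was that of lama2, the alpha chain of the muscle laminin, in heart tube 2, where lama2 had 0.111, 1.59 and 0.408 CPM in the 3 heart tubes and 0 counts in all 4 proepicardium libraries, which allows up to 0.169 to 0.331 CPM there. Names with fewer than 10 counts in all were itga2b, itga2.1, itgam.2, emilin3a, lamb3 and sparcl2. None of ITGB1BP1, itgb3bp and ITGBL1 was called in any comparison, so the counts of called members are the same without them.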

How the data were processed

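The deposited table of raw read counts per Ensembl gene was used; its values are whole numbers, as the authors deposited them without scaling. Per the submitters' processing notes, CASAVA 1.8, fastp, STAR, featureCounts and DESeq2 were used with the zebrafish builds GRCz11 and danRer11, and the order, settings and strand use are not given in the sources used here. A deposited table of log2 values was also read: all 193374 values lay within 1e-06 of a regularised log2 transformation computed here from the raw counts with DESeq2 without group information, so limma was run on them directly and not on log2(value + 1). Of the gene identifiers, 29201 of 32520 had a symbol in the symbol table. The 16 rows of construct sequences took at most 0.0309% of a library's counts and were left out, and 0 columns could not be matched to a sample.

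The test was the quasi-likelihood test of edgeR 4.0.16 (R 4.3.3) after TMM scaling, with robust dispersion, on genes kept by filterByExpr (count minimum 10, total minimum 15). All 9 libraries and tissue as the single factor entered 1 model of 17003 genes, because the pericardium had 2 libraries, and the common biological coefficient of variation was 0.528. Genes with a Benjamini-Hochberg adjusted p under 0.05 were called. CPM use TMM-adjusted library sizes. A tissue whose libraries all held 3 counts or fewer was set to 3 counts in the shallowest of them, and folds against it are lower bounds as to that tissue. Ratios of copies used log2 CPM with a prior count of 2 and a two-sided exact permutation test. Intervals and limits cover counting error only, since the files give no molecular identifiers for the amplified cDNA.

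Members and gene lists were chosen with earlier results of these data known. Members named are, per role, the 3 with the smallest p called between proepicardium and heart tube, the 2 between heart tube and pericardium, the highest among those called in neither, the 6 smallest p-values between proepicardium and pericardium, every member of the fibronectin, VCAM1, dystroglycan, tenascin, periostin and SPARC classes, and copies with separated ratios. From each list of partners the 3 with the smallest p in each direction were named. List symbols were matched with or without the zebrafish copy letter, so a listed gene can have several rows. Copies of a gene can share reads, and antisense or overlapping genes cannot be told apart where strand use is not given, so levels of single copies are uncertain in that respect. Gene lengths were not used, so levels are compared between tissues and not between genes. No sequence or coordinate of a member was used here. Values of 1 tested member are not reported here, and the counts of members include it. Alternatives were other scaling factors, other filters, DESeq2 1.42.0, limma-voom and limma 3.58.1 on the deposited table, fits of only the tissues compared, the replicate number as a block, and leaving out each library.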

Additional observations from a re-analysis of the deposited data

Results flagged for a closer look

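Each member was examined for a single proepicardium library far from the other 3, by the gap to the nearest value over the whole range (Dixon's criterion at 95%). Of the 64 tested members 3 met it, where chance gives about 1 in 20. EMILIN2 had 1.33 CPM in proepicardium 4 and 0.166 to 0.338 CPM in the other proepicardium libraries. FBN2 had 2.14 CPM in proepicardium 1 and 0.221 to 0.498 CPM in the others. ITGB1BP1, an integrin-binding protein that is not a subunit, had 32.9 CPM in proepicardium 1 and 4.48 to 9.21 CPM in the others.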

How the results depend on the processing

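Of 72 called results of named genes, 52 were called in the same direction under every alternative in which they could be computed, and none of the 72 reversed. The members called between proepicardium and heart tube numbered 28 with the replicate block (24.1% of all genes) to 39 with DESeq2 (35%). When single libraries were left out they numbered 27 (23.5% of all genes, without heart tube 2) to 36 (26.4%, without proepicardium 1). Between heart tube and pericardium they numbered from 24 (replicate block, 21.5% of all genes) up to 38 (limma-voom, 40.6%). Without single proepicardium or heart tube libraries they numbered 26 (23.2% of all genes, without heart tube 3) to 31 (26.5%, without heart tube 1 among others). They were fewer when a pericardium library was left out. Between proepicardium and pericardium 0 members were called under every alternative, while DESeq2 called 102, limma-voom 6 and limma run on the deposited values 3 of all genes, where edgeR called 0. When single libraries were left out, calls in the adhesion machinery list ranged from 10 to 14 between proepicardium and heart tube and from 9 to 15 between heart tube and pericardium. Calls among the dystroglycan partners ranged from 6 to 10 and from 2 to 8, and copies under one symbol with separated ratios from 8 to 10. Where pericardium 1 or 2 was left out, the lone library was assumed to vary like the other groups. The lowest counts of both lists between heart tube and pericardium came from such fits, in which the share of all genes called was lower too.

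Deviations from the tissue means correlated weakly between same-numbered libraries, at 0.0372, 0.0246 and 0.0598 for proepicardium and heart tube. Different-numbered libraries of these tissues gave -0.0945 to 0.0477. Same-numbered values were -0.0179 and 0.0249 between heart tube and pericardium, and 0.083 and 0.13 between proepicardium and pericardium. With 2 pericardium libraries the deviations mirror each other, so correlations there come in pairs of opposite sign. The numbers were not taken as a pairing, which so few libraries cannot exclude. With the replicate block, 11 results of named genes lost their call, and these losses are not listed with the genes above. Between proepicardium and heart tube they were NID2 (edgeR adjusted p = 0.208), SPARC (0.0664), emilin1a (0.057), EMILIN2 (0.0545) and FBLN2 (0.0537). Between heart tube and pericardium they were AGRN (0.0541), FBLN1 (0.066), FBLN7 (0.0712), ITGA5 (0.0799), LAMB1 ENSDARG00000045524 (0.0679) and ITGB1 ENSDARG00000071863 (0.0781).

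The log2 difference turned its sign under some alternatives for results that were not called, and the cause was not tested. FBN2 between heart tube and pericardium was 0.10 with the replicate block and -0.52 to 0.57 without single libraries (positive without pericardium 2), and HSPG2 there was -0.81 to 0.0059 without single libraries (positive without heart tube 1). Between proepicardium and heart tube, itga2.3 was 0.64 with limma-voom, 0.24 on the deposited table, 0.87 with the replicate block and -0.79 to 0.46 without single libraries (0.15 without proepicardium 4). Between heart tube and pericardium itga2.3 was -0.85 to 0.80 without single libraries (0.35 without heart tube 3), and -2.04 with limma-voom. ITGB3 ENSDARG00000045070 was -1.32 to 0.24 without single libraries (0.24 without proepicardium 3 or heart tube 2, and 0.075 without proepicardium 4). Between heart tube and pericardium it was 0.21 with the replicate block and -0.75 to 0.047 without single libraries. NID1 ENSDARG00000068710 between heart tube and pericardium was -0.65 with limma-voom, -0.15 on the deposited table and -0.99 to 0.81 without single libraries. TNC ENSDARG00000078362 between proepicardium and heart tube was -0.39 with limma-voom, -0.0916 on the deposited table and -0.82 to 1.15 without single libraries. A mean count of at least 50 left 46 members to test, so low members have no value there.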
